A study of Mus musculus with 12 samples.

Results

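Ribosomal protein genes encode the protein parts of the ribosome, and their transcripts were followed in mouse dorsal skin in an atopic dermatitis-like model. The genes were taken by name, as symbols that start with Rpl or Rps and a number or are Rplp0, Rplp1 or Rplp2, leaving out symbols that contain -ps. They were also selected on their measured level, with the average of the 12 libraries required to reach 1 FPKM (fragments scaled by transcript length and library depth). Among 36400 listed genes 101 fit the name, and 99 of them reached that level. These 99 comprise 76 canonical ribosomal proteins (46 of the large and 30 of the small subunit), 8 coding paralogs, 6 pseudogene or retrogene loci and 9 genes that carry the name but encode no ribosomal protein. All 99 were among the 21890 genes tested, so no member was lost to the filter on low values.

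RNA was extracted from the dorsal skin of female BALB/c mice, 6 weeks old at purchase, with 3 mice in each of 4 groups and 1 library per mouse. The dorsal hair of all groups was shaved, and skin was collected on day 30. Control mice received the vehicle, a mixture of acetone and olive oil. DNCB mice were sensitized with 1% and challenged with 0.5% 2,4-dinitrochlorobenzene (DNCB), a hapten. The scMSC and scivMSC mice received the same DNCB course and 4 injections of 2000000 human umbilical cord mesenchymal stem cells. In scMSC mice each injection was 100 µL under the dorsal skin, while in scivMSC mice it was split into 50 µL given subcutaneously and 50 µL by the tail vein. The groups are thus a hapten model in 1 inbred strain, given cells of another species, and no group received cells without DNCB. No injection without cells is described for control or DNCB mice, so effects of the cells and of the injection cannot be told apart. The libraries held between 63877153 and 75134001 estimated counts.

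A ribosome is built from ribosomal RNA and a fixed set of proteins, nearly all needed in equal number, so cells usually make the transcripts of these proteins together. Many of the transcripts start with a run of pyrimidines that ties their translation to growth signals through the kinase mTOR, and Myc promotes their transcription. A few of the proteins have a paralog of restricted expression. Rpl3l, the paralog of Rpl3, is known for replacing it in skeletal and cardiac muscle.

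Canonical ribosomal proteins were among the most abundant transcripts of the skin. The highest mean level was that of Rplp1, a protein of the large subunit stalk, at 1806 FPKM, the rank 21 of all genes in the table. Rps15 (1013 FPKM), Rps3a1 (844 FPKM), Rpl4 (674 FPKM) and Rpl8 (558 FPKM) followed. The same 10 canonical members led in every group, namely these 5 with Rplp0, Rpl41, Rpl36, Rps4x and Rpl32. The lowest canonical levels were those of Rpl21 (1.01 FPKM), Rpl29 (3.53 FPKM) and Rpl30 (14.0 FPKM). Just inside the threshold of 1 FPKM lay Rpl21, Rps23rg1 (1.02 FPKM) and Rps6kc1 (2.37 FPKM), and just outside it Rps6ka5 (0.692 FPKM) and Rps6kl1 (0.268 FPKM).

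The level of some members may depend on how reads were divided between near-identical copies, which was not tested. The table holds 245 rows named after 58 of the canonical members with -ps, and such copies share sequence with the parent. Rpl21 held 3.44% of the estimated counts of its own family, and its copy Rpl21-ps15 was listed at 188 FPKM. Rps2 held 5.45%, Rps18 10.1%, Rpl35a 23.3%, Rpl17 23.5%, Rpl7a 32.5% and Rps12 49.2%. The median over the 76 members was 98.9%. The levels of these 7 members are therefore uncertain. The rows of the 6 pseudogene or retrogene loci among the members, and of the intronless copies Rps27rt and Rps23rg1, are uncertain for the same reason. Only rows named with -ps were counted as family, so copies under other names are left out. Rps3a2, for example, is not counted with Rps3a1, which has no -ps row. A high share therefore does not show that the level of a member is certain.

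The summed level of the canonical members was lowest in control skin. As a share of the summed FPKM it was 3.73%, 4.16% and 4.43% in the control libraries and 6.14%, 6.34% and 6.02% in the DNCB libraries. In scMSC skin it was 5.83%, 5.62% and 5.88%, and in scivMSC skin 5.81%, 6.39% and 4.93%. Every library of the other groups lay above every control library, whereas scivMSC overlapped both DNCB and scMSC. The group values were 4.11% ± 0.354, 6.17% ± 0.164, 5.78% ± 0.138 and 5.71% ± 0.734 (mean ± SD, n = 3) in the order control, DNCB, scMSC and scivMSC. For a single value of this kind, an exact permutation test of 3 against 3 libraries cannot give a p below 0.10.

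**Figure D1:**
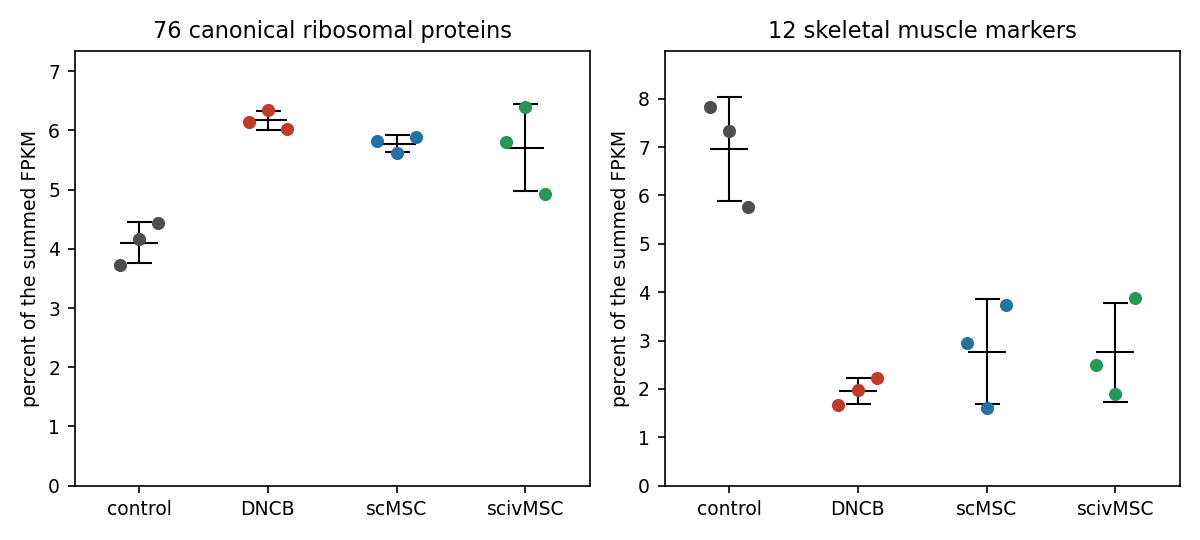
Share of the summed FPKM held by the 76 canonical ribosomal proteins (left) and by 12 skeletal muscle markers (right), in percent, for each library (points) with the mean and SD of each group (black, n = 3). The control libraries lie between 3.73% and 4.43% on the left, below all others, and between 5.76% and 7.82% on the right, above all others.

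A share depends on what fills the rest of the library. The 12 skeletal muscle markers, led by the actin gene Acta1, held 7.82%, 7.33% and 5.76% of the summed FPKM in control, 1.67%, 1.97% and 2.22% in DNCB, 2.95%, 1.60% and 3.74% in scMSC and 2.49%, 1.90% and 3.89% in scivMSC libraries. All 12 were detected. Without them the ribosomal protein share was 4.41% ± 0.334 in control skin, 6.29% ± 0.163 with DNCB alone, and 5.94% ± 0.206 and 5.87% ± 0.696 in scMSC and scivMSC skin. The highest control library (4.70%) was then below the lowest of the others (5.13%). Only these 12 markers were removed, and the part of muscle in the ribosomal protein share was not tested. As a share of estimated counts the values were 2.80% ± 0.226, 3.80% ± 0.0811, 3.62% ± 0.131 and 3.64% ± 0.227, again in the order control, DNCB, scMSC and scivMSC. In bulk skin, fewer cells of a type and less RNA per cell cannot be told apart.

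The summed level of both subunits was lowest in control. The large to small ratio of summed FPKM was 1.42 ± 0.0325 in control skin, 1.497 ± 0.0375 with DNCB alone, and 1.46 ± 0.0161 and 1.42 ± 0.0270 in scMSC and scivMSC skin, and every DNCB library (1.45 to 1.53) lay above every control library (1.38 to 1.44). Control overlapped scMSC and scivMSC in this ratio. Replicates were close. The median coefficient of variation of a canonical member within a group was 8.92% (control), 3.73% (DNCB), 5.62% (scMSC) and 6.93% (scivMSC). For all 4853 genes averaging 10 FPKM or more it was 14.5%, 8.05%, 14.9% and 15.02%.

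DNCB against control asks what the hapten did to the skin. Of the 76 canonical members 15 rose in DNCB skin and 0 fell, beside 12.9% of all tested genes that rose and 12.4% that fell (edgeR's quasi-likelihood test, adjusted p under 0.05). The share of members that rose was 19.7%. No canonical member fell at an unadjusted p under 0.05 either, where 17.7% of all genes did, and DESeq2 and limma also gave 0. The median log2 fold change of the canonical members was 0.27, against 0.02 over all tested genes, and 72 of the 76 values were positive. Changes were small, and Rpl29 alone passed the test with an absolute log2 fold change over 1. After TMM scaling, 47 of the 76 members had all 3 DNCB libraries above all 3 control libraries, where 24.4% of all tested genes had. On FPKM, which were not scaled in this way, 69 members and 31.7% of all genes had.

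The members that rose were mainly of the large subunit, 13 of 46, while 2 of 30 small subunit members did, beside 12.9% of all genes. The medians were 0.32 for the large and 0.22 for the small subunit, and the difference between the subunits was not tested. Rpl27, on the solvent side of the large subunit, had the lowest adjusted p. Its FPKM was 128, 144 and 150 in control, 233, 229 and 233 in DNCB, 198, 196 and 233 in scMSC and 202, 240 and 221 in scivMSC libraries. All 9 libraries of DNCB-treated mice lay above the 3 control libraries. The log2 fold change in DNCB was 0.54 ± 0.12 (± SE, adjusted p = 0.00727).

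Rpl3, a large core protein of the large subunit near its catalytic center, stood at 91.8, 105 and 94.3 FPKM in control and 174, 184 and 167 FPKM in DNCB libraries. The log2 fold change was 0.66 ± 0.15 (adjusted p = 0.00810), and the groups did not overlap. Rpl19 had 287, 311 and 333 FPKM in control and 483, 492 and 472 FPKM in DNCB libraries, a log2 fold change of 0.45 ± 0.11 (adjusted p = 0.0121). On FPKM, but not after TMM scaling, Rpl19 was higher in every DNCB library than in any library of the other groups.

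Rpl29 had the largest fold change of the canonical members, on few reads. It was listed at 1.13, 1.04 and 2.71 FPKM in control and 4.21, 5.39 and 4.73 FPKM in DNCB libraries. These correspond to 94, 89 and 215 estimated counts in control and 356, 503 and 434 in DNCB. Between 38.9% and 41.2% of low estimated counts were multiples of 4, so the number of fragments may be smaller. The log2 fold change was 1.38 ± 0.36 (adjusted p = 0.0172). The smallest value was that of Rpl22, at -0.09 ± 0.19 (adjusted p = 0.770).

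The small subunit members that rose were Rps2 and Rps23. Rps2, at the entry of the messenger RNA channel, had 16.8, 16.9 and 19.4 FPKM in control and 27.3, 27.97 and 31.6 FPKM in DNCB libraries, with a log2 fold change of 0.53 ± 0.13 (adjusted p = 0.0148). When the counts of Rps2 were summed with those of its 12 -ps rows, the adjusted p was 0.520, so the call holds for the row of Rps2 and not for the family. Rps23, near the decoding center, had a log2 fold change of 0.39 ± 0.12 (adjusted p = 0.0357). The other large subunit members past the test were Rpl10, Rpl27a, Rpl15, Rpl39, Rpl36, Rpl35, Rpl12, Rpl10a and Rpl7a, with log2 fold changes from 0.33 to 0.90. Rpl15 no longer passed when summed with its -ps rows (adjusted p = 0.197).

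The number of calls depended on scaling, on the filter and on single libraries. With no filter on low values, 5 members passed beside 5.80% of all genes. With library size alone in place of TMM, 52 members passed beside 19.3% of all genes, and the median of all genes was 0.20 in place of 0.02. Relative to that median the members stood at 0.25 under either scaling. The FPKM carry a like shift, with limma on log2(FPKM + 0.1) giving a median of all genes of 0.20 and 53 members past the test beside 20.5% of all genes. DESeq2 gave 22 members beside 15.6% of all genes. Without control replicate 1, 2 members passed, Rpl3 and Rpl27. The count was 9 without control replicate 2, 7 without control replicate 3, and 7, 5 and 4 without DNCB replicates 1, 2 and 3. It was 9 without scMSC replicate 2 and 9 without scivMSC replicate 3. The share of all genes that passed in these fits is not given, so these counts are not compared with other genes.

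**Figure D2:**
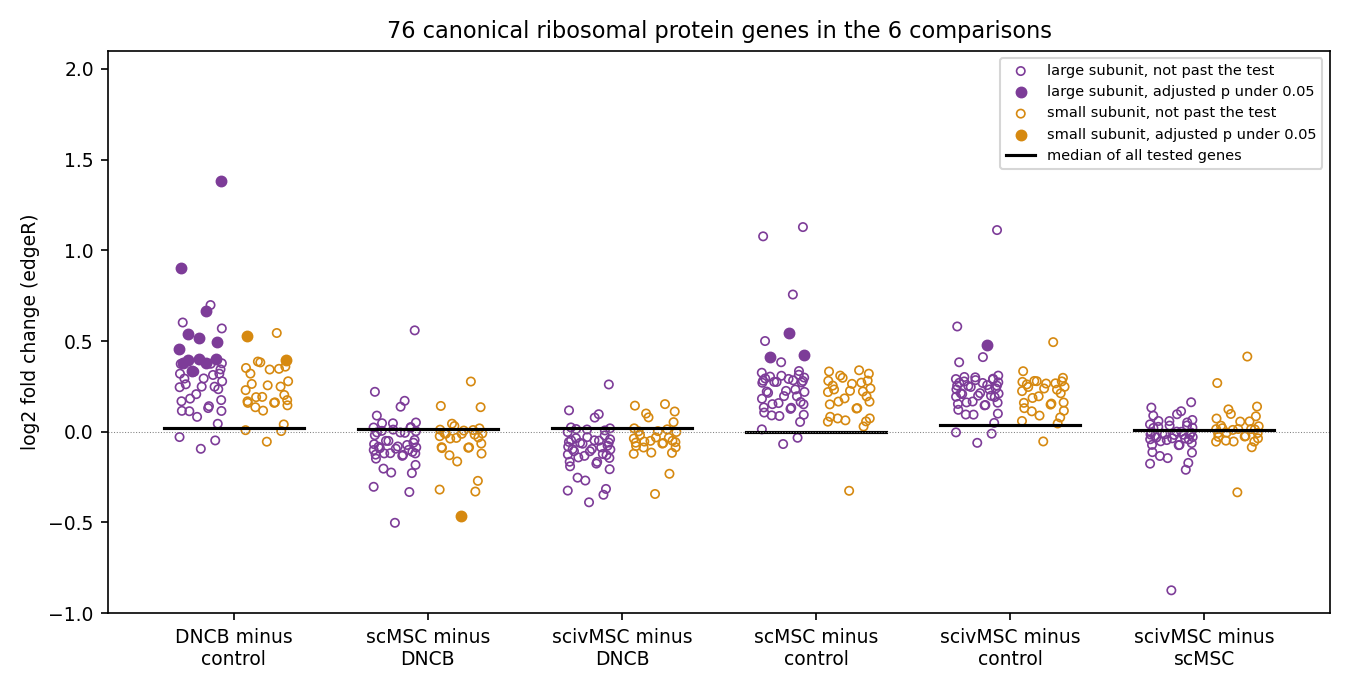
Log2 fold change of each canonical ribosomal protein in the 6 comparisons from edgeR (large subunit purple, small subunit orange, filled where the adjusted p was under 0.05), with the median of all tested genes as a black line. Most points lie above that line in the 3 comparisons with control (medians 0.27, 0.22 and 0.23) and near it in the others.

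Comparisons of the cell-treated groups with DNCB ask whether the response differed after injection of cells, where cells and injection cannot be told apart. In scMSC against DNCB, 0 canonical members rose and 1 fell, Rps2, beside 6.95% of all genes that rose and 5.77% that fell. The median was -0.05, against 0.02 over all genes, and it was -0.02 without DNCB replicate 2, 0.02 without scMSC replicate 1 and -0.15 without scMSC replicate 2. Rps2 had 19.9, 20.2 and 21.6 FPKM in scMSC libraries, all below the DNCB libraries, and its log2 fold change was -0.47 ± 0.13 (adjusted p = 0.0434). Summed with its -ps rows, Rps2 had an adjusted p of 0.251. The count was 0 when any 1 of the control, DNCB or scMSC libraries was left out. The share of all genes in those fits is not given. After TMM scaling, 6 members had all scMSC libraries below and 2 above those of DNCB, beside 16.7% and 17.1% of all genes. On FPKM these were 21 below and 2 above, beside 17.1% and 16% of all genes. The largest value, 0.56 ± 0.43 for Rpl17, did not pass the test (adjusted p = 0.478). The smallest was -0.50 for Rpl21, and both belong to the members with uncertain levels. The mean of Rpl21 was 1.35 FPKM in DNCB, 1.02 FPKM in scivMSC, 0.944 FPKM in scMSC and 0.727 FPKM in control. Rpl21 thus reached the threshold of 1 FPKM mainly through DNCB, so its values against DNCB are given without a test.

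In scivMSC against DNCB, 0 canonical members passed the test in edgeR, DESeq2 or limma, beside 4.56% of all genes that rose and 3.6% that fell. At an unadjusted p under 0.05 edgeR gave 0 higher and 1 lower, beside 12.1% and 10.6% of all genes. Without scivMSC replicate 2, 1 member passed, in a fit whose share of all genes is not given. After TMM scaling, 13 members had all scivMSC libraries below and 1 above those of DNCB, beside 16.8% and 16.7% of all genes. On FPKM these were 8 below and 1 above, beside 16.3% and 16.4% of all genes. The median was -0.06, against 0.02, and it was -0.04 without DNCB replicate 2 and -0.02 without scivMSC replicate 1. The largest value was 0.26 ± 0.19 for Rpl22 (adjusted p = 0.470). The smallest, -0.39 for Rpl21, is again a description. In scivMSC against scMSC, 0 members passed in any of these tools, and 1 of all tested genes rose (0.00457%) and 0 fell (0%). At an unadjusted p under 0.05 edgeR gave 0 members in either direction, beside 3.4% of all genes higher and 4.1% lower. The extremes were Rpl17, at -0.87 ± 0.43 (adjusted p = 0.699), and Rps25, at 0.41 ± 0.23 (adjusted p = 0.746).

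The cell-treated groups were also compared with control, which shares its 3 libraries with the comparison above. In scMSC against control 3 canonical members rose and 0 fell, beside 10.4% and 8.12% of all genes. They were Rpl3 (log2 fold change 0.54 ± 0.15, adjusted p = 0.0271), Rpl27 (0.41 ± 0.12, adjusted p = 0.0329) and Rpl26 (0.42 ± 0.13, adjusted p = 0.0471). In scivMSC against control 1 member rose, Rpl27 (0.48 ± 0.12, adjusted p = 0.0232), and 0 fell, beside 7.11% and 6.13% of all genes. At an unadjusted p under 0.05, 19 and 14 members were higher, beside 17.4% and 15.5% of all genes, and 0 lower, beside 14.9% and 12.5%. DESeq2 gave 10 and 3 higher beside 12.98% and 9.51% of all genes, with 0 lower. Limma on log2(FPKM + 0.1), where the medians of all genes were 0.15 and 0.19, gave 36 and 36 higher beside 16.3% and 13.7% of all genes, with 0 lower. In scMSC against control 0 passed without control replicate 1, scMSC replicate 2 or scMSC replicate 3, and 1 without control replicate 2, control replicate 3, DNCB replicate 2 or DNCB replicate 3. In scivMSC against control 0 passed without control replicate 1, control replicate 2 or scivMSC replicate 2. The counts with a library left out are given without the share of all genes in the same fits.

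The canonical median was 0.22 in scMSC against control, where all genes had 0.00, and 0.23 in scivMSC against control, where all genes had 0.04. The former was 0.13 without control replicate 1 and 0.09 without scMSC replicate 2, and the latter 0.13 without control replicate 1. After TMM scaling, 27 members in scMSC and 26 in scivMSC had all libraries above those of control, beside 18.9% and 16.7% of all genes, and 1 in scMSC had all below, beside 17% of all genes. On FPKM 63 and 64 lay above, beside 25.9% and 24.3% of all genes, and 1 in scMSC below, beside 11.7%. Rpl17 had the largest value in scMSC against control (1.13 ± 0.43, adjusted p = 0.0976) and Rps25 the smallest (-0.33 ± 0.23, adjusted p = 0.377). In scivMSC against control the extremes were Rpl29 (1.11 ± 0.36, adjusted p = 0.0658) and Rpl30 (-0.06 ± 0.23, adjusted p = 0.901).

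With all 4 groups side by side, the group mean FPKM was lowest in control for 75 of the 76 canonical members and lowest in scMSC for 1. It was highest in DNCB for 56, in scivMSC for 12 and in scMSC for 8. These FPKM carry the shift of all genes relative to control given above. The share of all genes with the same group order is not given, so the tally describes the members only. Over the 12 libraries, 46 of the 76 members had a Pearson correlation over 0.8 with the mean log2 level of the canonical members, which includes each of them, and the median was 0.87. The share of all genes over 0.8 is not given, so this count also describes the members only. The lowest were Rpl22 (0.03), Rps10 (0.04) and Rps25 (0.09), and the highest was Rpl12 (0.99).

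Rpl3l and Rpl3 differed from control in opposite directions. Rpl3l lies at chr17:24727820-24736143 (GRCm38, + strand), near Rps2 at chr17:24718116-24721926, and Rpl3 at chr15:80077791-80091868 on the - strand. Rpl3l stood at 146, 133 and 95.9 FPKM in control, 29.4, 31.9 and 36.1 FPKM in DNCB, 42.6, 32.0 and 52.4 FPKM in scMSC and 39.4, 34.3 and 78.6 FPKM in scivMSC libraries. Each control library lay above all others, and scivMSC replicate 3 lay closest to control. The choice of genes names both Rpl3l and Rpl3. Rpl3l is given without a test, and the p of Rpl3, tested as a canonical member, is that of a gene named in the choice. The log2 fold change of Rpl3l was -2.14 in DNCB, -1.74 in scMSC and -1.46 in scivMSC skin relative to control, and without scivMSC replicate 3 the last became -2.01.

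Rpl3 had 150, 164 and 160 FPKM in scMSC and 152, 174 and 114 FPKM in scivMSC libraries, all above control on FPKM. These FPKM carry the shift of all genes relative to control given above. After TMM scaling, scivMSC replicate 3 did not lie above every control library. Rpl3 did not pass the test in scivMSC against control. On FPKM the ratio of Rpl3l to Rpl3 was 1.59, 1.27 and 1.02 in control. It was 0.169, 0.174 and 0.216 in DNCB, 0.285, 0.195 and 0.327 in scMSC and 0.259, 0.197 and 0.688 in scivMSC libraries. In estimated counts, which are not scaled for length, the control libraries had 17348, 16259 and 11067 for Rpl3l. For Rpl3 they had 21048, 24743 and 21027, so which of the pair is more abundant there depends on the measure. Rpl3 held 52.7% of the counts of its family, so its level, and with it this ratio, depends on how reads were divided with Rpl3-ps1.

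Rpl3l followed the skeletal muscle markers. The summed level of the 12 markers was 31582, 31117 and 22125 FPKM in control, 6006, 7079 and 8201 FPKM in DNCB, 10345, 6169 and 13580 FPKM in scMSC and 8694, 6817 and 16262 FPKM in scivMSC libraries. Of the 12, 9 fell in DNCB, 8 in scMSC and 8 in scivMSC relative to control, beside 12.4%, 8.12% and 6.13% of all genes, and 0 rose. Per 1000 FPKM of these markers Rpl3l had 4.63, 4.27 and 4.33 FPKM in control, 4.89, 4.50 and 4.40 in DNCB, 4.12, 5.19 and 3.86 in scMSC and 4.53, 5.03 and 4.84 in scivMSC. The groups overlapped on this scale. Between the highest and the lowest library Rpl3l varied 4.98-fold as FPKM and 1.35-fold per muscle marker level.

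**Figure D3:**
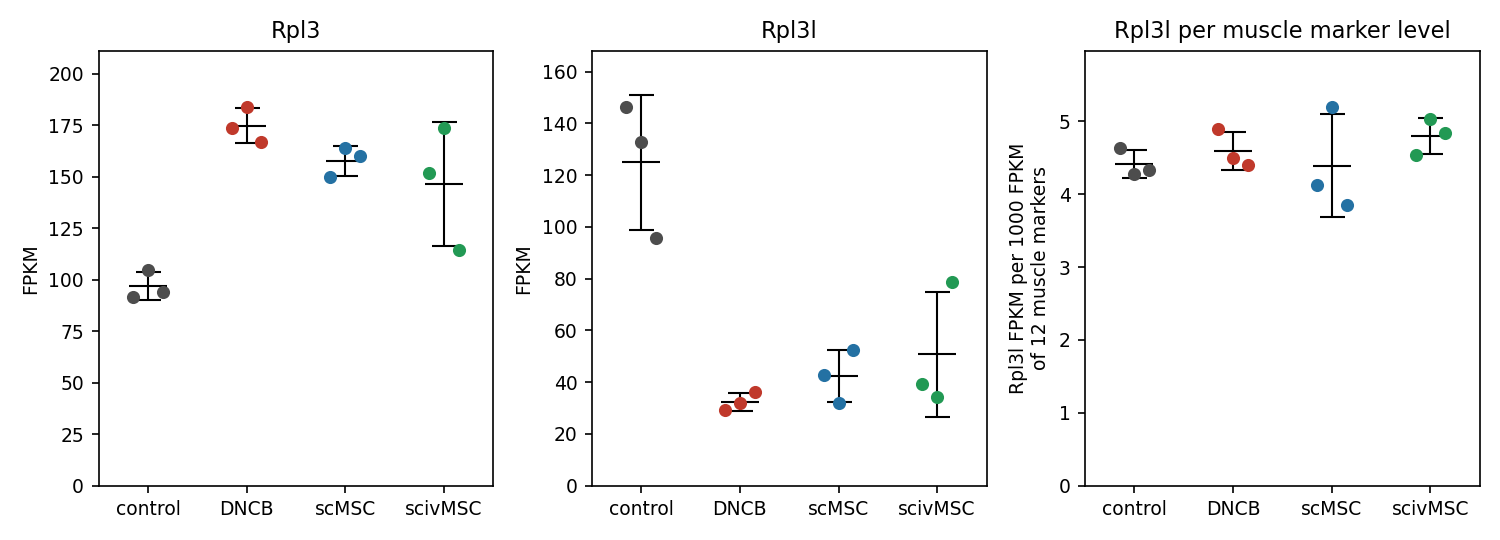
FPKM of Rpl3 (left) and Rpl3l (middle) and Rpl3l FPKM per 1000 FPKM of 12 skeletal muscle markers (right) for each library (points), with the mean and SD of each group (black, n = 3). Control has the lowest Rpl3 and the highest Rpl3l libraries, and on the right the groups overlap between 3.86 and 5.19.

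Of the other coding paralogs, Rpl39l changed most. This copy of Rpl39, best known from the testis, was at 7.18, 5.73 and 3.32 FPKM in control, 9.14, 10.8 and 13.4 FPKM in DNCB, 3.83, 4.30 and 2.87 FPKM in scMSC and 3.65, 5.34 and 5.06 FPKM in scivMSC libraries. The DNCB libraries lay above all others. Rpl39l fell by 1.56 ± 0.33 on the log2 scale in scMSC (adjusted p = 0.0119) and by 1.23 ± 0.33 in scivMSC (adjusted p = 0.0444), both relative to DNCB. The latter had an adjusted p of 0.151 without scivMSC replicate 1. DNCB against control gave 0.84 ± 0.33 (adjusted p = 0.0851). Its partner Rpl39 rose by 0.38 ± 0.12 in DNCB against control (adjusted p = 0.0350) and gave -0.22 ± 0.12 in scMSC against DNCB (adjusted p = 0.257).

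Rpl7l1, a relative of Rpl7 that takes part in ribosome assembly, had 14.8, 17.1 and 15.4 FPKM in control and 26.3, 24.0 and 28.6 FPKM in DNCB libraries. It rose by 0.55 ± 0.12 in DNCB (adjusted p = 0.00664) and by 0.50 ± 0.12 in scMSC (adjusted p = 0.0145, and 0.0719 without control replicate 1) relative to control. Rpl7 itself gave 0.17 ± 0.15 in DNCB against control (adjusted p = 0.454). Whether Rpl7l1 and Rpl7 differed in their response was not tested.

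For Rpl22l1 and Rpl22 the values in DNCB against control were 0.40 ± 0.18 and -0.09 ± 0.19 (adjusted p = 0.142 and 0.770), with group means of 33.1 and 49.6 FPKM for Rpl22l1 in control and DNCB. Rpl36al and Rpl36a were alike in level, with means of 115 and 95.5 FPKM, and gave 0.28 ± 0.13 and 0.33 ± 0.14 (adjusted p = 0.127 and 0.0999). Rps27l, a target of p53, gave -0.08 ± 0.15 beside 0.26 ± 0.11 for Rps27 (adjusted p = 0.757 and 0.106). Rps27rt, an intronless copy of Rps27, rose by 0.65 ± 0.18 in scMSC against control (adjusted p = 0.0280, and 0.131 without control replicate 1). The level of Rps27rt may depend on how reads were divided with Rps27, which was not tested. Rps23rg1, an intronless copy of Rps23 near the threshold, gave 0.01 ± 0.49 in DNCB against control (adjusted p = 0.998). It reached the threshold through scMSC, with a mean of 1.32 FPKM there. The means were 0.849 FPKM in control, 0.951 FPKM in DNCB and 0.969 FPKM in scivMSC.

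Among the 6 pseudogene or retrogene loci, Rps3a2 was highest at 279 FPKM and Rpl32l lowest at 3.10 FPKM. Of the 6, Rps4l alone passed a test. Its log2 fold change was 0.89 ± 0.24 in scivMSC against control (adjusted p = 0.0326, and 0.101 without control replicate 3), where 7.11% of all genes rose. The others were Rpl6l, Rps3a3 and Rpl37rt.

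The 9 members that encode no ribosomal protein are 8 kinases of the ribosomal S6 kinase families and Rps19bp1, a binding protein of Rps19, and they did not move as a group. In DNCB against control 3 of the 9 rose and 2 fell, beside 12.9% and 12.4% of all genes. Rps6ka4, a kinase of the MSK type that acts on chromatin, had 9.04, 8.36 and 10.97 FPKM in control, 21.4, 21.7 and 20.0 FPKM in DNCB, 11.4, 10.3 and 9.30 FPKM in scMSC and 10.2, 14.9 and 8.63 FPKM in scivMSC libraries. The DNCB libraries stood above all others, which overlapped. Rps6ka4 rose by 0.97 ± 0.17 in DNCB against control (adjusted p = 0.00244) and fell by 1.00 ± 0.17 in scMSC (adjusted p = 0.00437) and by 0.90 ± 0.17 in scivMSC (adjusted p = 0.0116, and 0.0539 without scivMSC replicate 1) against DNCB.

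Rps6ka1, which encodes the growth factor kinase RSK1, rose by 0.91 ± 0.16 in DNCB against control (adjusted p = 0.00251). It also passed in scivMSC against DNCB (-0.65 ± 0.16, adjusted p = 0.0310, and 0.104 without DNCB replicate 2) and in scMSC against control (0.53 ± 0.16, adjusted p = 0.0406, and 0.237 without scMSC replicate 2). Rps6ka6 fell by 1.35 ± 0.25 in DNCB against control (adjusted p = 0.00366). Rps6ka2 had 5.49, 4.18 and 4.83 FPKM in control and at most 3.17 FPKM in any other library. It fell relative to control by 1.05 ± 0.23 in DNCB, by 1.16 ± 0.23 in scMSC and by 1.47 ± 0.23 in scivMSC (adjusted p = 0.00758, 0.00671 and 0.00555). Rps6kb1, which encodes the kinase that phosphorylates Rps6 downstream of mTOR, rose by 0.31 ± 0.09 in DNCB (adjusted p = 0.0262, and 0.136 with no filter on low values).

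Other genes of the ribosome and of translation were taken from fixed lists. Of 49 ribosome biogenesis genes, 27 rose in DNCB, 23 in scMSC and 11 in scivMSC relative to control, beside 12.9%, 10.4% and 7.11% of all genes, and 0 fell. Their medians were 0.48, 0.42 and 0.32, above those of the canonical ribosomal proteins. Heatr1, needed for transcription and processing of ribosomal RNA, was at 2.56 ± 0.244 FPKM in control and 5.97 ± 0.436 FPKM in DNCB (log2 fold change 1.04 ± 0.13, adjusted p = 0.000812). Gnl3 (1.02 ± 0.13), Wdr75 (0.78 ± 0.11) and Ncl (0.85 ± 0.12) followed (adjusted p = 0.000864, 0.00127 and 0.00127).

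Relative to DNCB, 1 of the 49 biogenesis genes (2.04%) rose in scMSC, Rrp1b (1.32 ± 0.29, adjusted p = 0.0148), beside 6.95% of all genes. In scivMSC 1 (2.04%) fell relative to DNCB, Ncl (-0.46 ± 0.12, adjusted p = 0.0448), beside 3.6% of all genes. Of 12 genes of RNA polymerase I and its factors, 3 (25%) rose in DNCB against control beside 12.9% of all genes, Taf1d (1.17 ± 0.14, adjusted p = 0.000706), Polr1e (0.83 ± 0.18, adjusted p = 0.00807) and Ubtf (0.37 ± 0.12, adjusted p = 0.0424). In this list 4 rose in scMSC and 3 in scivMSC relative to control, beside 10.4% and 7.11% of all genes.

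Of 17 elongation factors and other genes known for pyrimidine-rich transcript starts, 6 rose in DNCB, 4 in scMSC and 2 in scivMSC relative to control, beside 12.9%, 10.4% and 7.11% of all genes. Pabpc1, the poly(A) binding protein, rose by 1.07 ± 0.15, 0.98 ± 0.15 and 0.76 ± 0.15 (adjusted p = 0.00107, 0.00210 and 0.00968), and Npm1, a nucleolar chaperone, by 1.03 ± 0.20, 0.79 ± 0.20 and 0.80 ± 0.20 (adjusted p = 0.00394, 0.0196 and 0.0234). Of 23 initiation factors 6 (26.1%) rose and 1 (4.35%) fell in DNCB against control, beside 12.9% and 12.4% of all genes, led by the helicase Eif4a1 (0.95 ± 0.13, adjusted p = 0.00108) and by Eif3a (0.66 ± 0.13, adjusted p = 0.00392). Of 20 genes that control ribosome synthesis, Rps6kb1 and Rps6kb2 among them, 3 (15%) rose and 3 (15%) fell, near the same shares of all genes. Myc was at 7.76 ± 0.644 FPKM in control and 14.0 ± 1.29 FPKM in DNCB (0.67 ± 0.13, adjusted p = 0.00511), and Sesn1, an inhibitor of mTOR signaling, fell by 0.74 ± 0.20 (adjusted p = 0.0189).

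The medians of the mitochondrial ribosomal proteins had the opposite sign. Of their 78 genes 0 rose and 8 (10.3%) fell in DNCB, 14 (17.9%) fell in scMSC and 6 (7.69%) fell in scivMSC relative to control, beside 12.4%, 8.12% and 6.13% of all genes that fell. The medians were -0.27, -0.28 and -0.24, where the canonical cytoplasmic members had 0.27, 0.22 and 0.23. Mrpl42 fell by 0.88 ± 0.18, 1.25 ± 0.18 and 1.00 ± 0.18 (adjusted p = 0.00518, 0.00172 and 0.00748), and Mrps36 by 1.09 ± 0.21 in DNCB (adjusted p = 0.00438). The medians of all genes were 0.02, 0.00 and 0.04. Against DNCB, 0 of the 78 passed in edgeR in either cell-treated group, beside 6.95% of all genes higher and 5.77% lower in scMSC and 4.56% and 3.6% in scivMSC.

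Markers of several cell types differed between the groups, and their part in the results was not tested. The 6 proliferation markers, led by Mki67, summed to 10.1, 21.6 and 14.95 FPKM in control, 82.0, 62.7 and 70.0 FPKM in DNCB, 35.9, 41.4 and 67.5 FPKM in scMSC and 33.6, 56.8 and 52.9 FPKM in scivMSC libraries. All 6 rose in DNCB, 4 in scMSC and 6 in scivMSC relative to control, beside 12.9%, 10.4% and 7.11% of all genes. Every library of the 3 DNCB-treated groups lay above control, as for the ribosomal protein share. The 8 keratinocyte markers, led by Krt10, summed to 6219, 8974 and 12416 FPKM in control, 17766, 19596 and 13457 FPKM in DNCB, 9753, 6522 and 5213 FPKM in scMSC and 12069, 15733 and 9118 FPKM in scivMSC libraries. Of these 8, 4 rose and 2 fell in DNCB against control, beside 12.9% and 12.4% of all genes, and control overlapped both cell-treated groups.

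The 7 neutrophil markers, led by S100a9, summed to 123, 120 and 207 FPKM in control and 3145, 3433 and 2464 FPKM in DNCB libraries, and all 7 rose, beside 12.9% of all genes. They summed to at most 177 FPKM in the cell-treated groups. The 9 hair follicle markers, led by Krt71, summed to 14.8, 202 and 8.43 FPKM in control, 282, 189 and 581 FPKM in DNCB, 4315, 12157 and 6054 FPKM in scMSC and 3923, 1607 and 2197 FPKM in scivMSC libraries. None of the markers named here was at 0 in every library.

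The 7 fibroblast and matrix markers, led by Col3a1, summed to 298, 248 and 364 FPKM in control, 2184, 2272 and 1954 FPKM in DNCB, 766, 255 and 354 FPKM in scMSC and 712, 965 and 132 FPKM in scivMSC libraries. Of these 7, 5 rose in DNCB against control, beside 12.9% of all genes. The 5 sebaceous gland markers, led by Scd1, summed to 484, 585 and 545 FPKM in control, 81.3, 69.7 and 73.6 FPKM in DNCB, 481, 291 and 259 FPKM in scMSC and 460, 258 and 533 FPKM in scivMSC libraries, and 4 fell in DNCB against control, beside 12.4% of all genes. The 6 T cell markers, led by Trbc2, summed to 11.6, 16.5 and 16.6 FPKM in control and 35.2, 37.0 and 42.5 FPKM in DNCB libraries, and 2 of the 5 tested rose, beside 12.9% of all genes. The 7 macrophage and monocyte markers, led by Lyz2, summed to 202, 220.1 and 785 FPKM in control and 719, 760.4 and 776 FPKM in DNCB libraries, which overlapped, and 0 of them passed in edgeR. None of these markers was at 0 in every library.

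Outside the name rule, the genes whose log2 level was most like the mean of the canonical members over the 12 libraries included the processed pseudogenes Rps16-ps2 (Pearson r = 0.97) and Rps10-ps2 (0.97), and Rps18-ps6 (0.97), which the table lists as protein coding. The other 7 of the closest 10 were Nme1 (0.97), Gm27597 (0.96), Ddx39 (0.95), 1110038B12Rik (0.95), Bend3 (0.95), Eef1b2 (0.95) and Sgo1 (0.95), of 14287 genes compared. These correlations rest on 4 groups of 3 libraries and describe them only.

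Some features of the promoter, which the choice by name did not use, were more frequent in the members than in all promoters. RefSeq promoters (GRCm38.p6, from 250 bases before to 50 bases from the first transcribed base) matched 56 of the 76 canonical members. A run of at least 8 unbroken C or T bases that overlapped the 10 bases on either side of the start was present in 25 of the 56 (44.6%) and in 13.9% of all 27025 promoters. A first base C with at least 4 C or T bases after it was present in 12 (21.4%) and in 2.49% of all promoters. Of the 69 mitochondrial ribosomal protein promoters 9 (13.0%) had the run, and of 42 ribosome biogenesis promoters 2 (4.76%). Of the 11 promoters found for the 17 elongation factors and other genes known for pyrimidine-rich starts, 4 (36.4%) had the run and 3 (27.3%) the first base C with 4 C or T bases after it.

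On either strand, CCGGAAG, a core of sites bound by ETS factors, was found in 22 of the 56 (39.3%) and in 9.12% of all promoters. CTCGCGA was found in 13 (23.2%) and in 2.03%, CACGTG, the E-box bound by Myc, in 5 (8.93%) and in 7.24%, and TATAAA in 5 (8.93%) and in 14.2%. These 4 motifs do not contain one another. CCGGAAG was also in 25 of 69 mitochondrial ribosomal protein promoters (36.2%) and 14 of 42 ribosome biogenesis promoters (33.3%), where CACGTG was in 9 (21.4%).

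Of the 15 members that rose in DNCB skin 12 had a promoter sequence, and 5 of these had the C or T run. This is a like share to that of all canonical members with a promoter sequence, 25 of 56 (44.6%). The 30 bases around the start of these 5, 15 before it and 15 from it, are shown with that run in capitals. Not all members that rose and lacked the run are shown, so the windows do not give its frequency. A link between the run and the rise was not tested. Rpl27 and Rpl19, the members of lowest adjusted p that had a promoter sequence and lacked the run, follow with Rpl3l.
Rpl27a, chr7:109519180-109519209, + strand: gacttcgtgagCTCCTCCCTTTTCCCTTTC
Rpl15, chr14:18270972-18271001, - strand: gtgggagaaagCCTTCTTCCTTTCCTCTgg
Rpl39, chrX:37085208-37085237, - strand: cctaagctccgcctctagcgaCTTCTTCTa
Rpl35, chr2:39005117-39005146, - strand: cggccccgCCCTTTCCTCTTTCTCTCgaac
Rpl7a, chr2:26910792-26910821, + strand: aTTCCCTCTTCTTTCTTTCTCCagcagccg
Rpl27, chr11:101442230-101442259, + strand: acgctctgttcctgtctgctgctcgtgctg
Rpl19, chr11:98026695-98026724, + strand: tgaccaaacgccctcactgcgcatgtgcgc
Rpl3l, chr17:24727811-24727840, + strand: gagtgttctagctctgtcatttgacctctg
The runs were 20, 17, 8, 18 and 21 bases long in the first 5, and that of Rpl27a goes on past the end of the window, which shows 19 of its bases. A match is a description of these windows and depends on where RefSeq places the start.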

How the data were processed

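Dorsal skin RNA in 12 libraries was analysed. The authors deposited FPKM, which are scaled for transcript length and depth, and estimated counts, which are whole numbers without scaling. The submitters' processing notes name HISAT2 2.0, StringTie 1.3.0, Bowtie 0.12.2 and the build mm8, but all 101 named rows overlap their GENCODE M21 position on GRCm38. Genes averaging 0.1 FPKM or more over all libraries were tested on their estimated counts by edgeR 4.0.16 (R 4.3.3), with its quasi-likelihood F-test after TMM scaling, in 1 model of 4 groups. P-values were adjusted over all tested genes by the Benjamini-Hochberg method, and standard errors were derived from the F statistic. DESeq2 1.42.0 and limma 3.58.1, with a pseudocount of 0.1 FPKM, were alternatives. The fits were also run on simulated counts, whose spread and size of change differed from these data. That run does not show how the fits behave here. Figures used Python 3.11.15 and matplotlib 3.10.9.

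Members and lists were chosen with earlier results of these data known. Named by rule were Rpl3 and Rpl3l, all paralogs, the 5 highest and 3 lowest canonical members, those next to the threshold, the 3 canonical members of lowest adjusted p per comparison and direction, members past 0.05 with an absolute log2 fold change over 1, the extremes of each comparison, up to 4 genes per list past 0.05, and the 10 most like genes. Further members past 0.05 were named after their values were seen.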

Additional observations from a re-analysis of the deposited data

How the results depend on the processing

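The alternatives used other size factors, library size alone, no filter, DESeq2, counts divided by 4, limma on log2(FPKM + 0.1), the replicate number as a block, and each library left out. Scaling from genes outside the name rule, members summed with their -ps rows and a share without muscle markers were chosen after seeing the data. For DNCB against control, 15 members passed in the main analysis, 52 with library size alone, 53 with limma and 5 with no filter, and the median of 0.27 became 0.45 and 0.46 with the first pair. For scMSC against control the count of 3 became 36, 36, 0 with no filter and 10 with DESeq2, and the median of 0.22 became 0.38 with either. For scivMSC against control the count of 1 became 34, 36, 0 and 3, and the median of 0.23 became 0.40 with either. In these 3 comparisons the medians of all genes were 0.02, 0.00 and 0.04 in the main analysis, 0.20, 0.16 and 0.21 with library size alone and 0.20, 0.15 and 0.19 with limma. The share of all genes that passed is given above with DESeq2 and limma. It is not given with library size alone or no filter for scMSC and scivMSC against control. The 1 member lower in scMSC than in DNCB became 0 with library size alone, no filter, the replicate block and members summed with their -ps rows.

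Samples that share a replicate number across groups did not vary together: 1 of 18 pairs had a correlation of deviations over 0.1 (-0.19 to 0.13), so the block is not a pairing. With the replicate block, 17 members passed in DNCB against control, 4 in scMSC and 1 in scivMSC against control. The share of all genes that passed with the block is not given, so a gain of the members alone cannot be read from these counts.

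Leaving out 1 library gave 2 to 14 members for DNCB against control, 0 to 1 for scMSC against DNCB, 0 to 1 for scivMSC against DNCB, 0 to 4 for scMSC against control, 0 to 1 for scivMSC against control and 0 for scivMSC against scMSC. In DNCB against control the count was 2, 9 and 7 without control replicate 1, 2 and 3, 7, 5 and 4 without DNCB replicate 1, 2 and 3, and 9 without scMSC replicate 2 or scivMSC replicate 3. The share of all genes that passed is not given for these fits, so the counts are not compared with other genes. The medians ranged from 0.19 to 0.32, and in the other comparisons with control from 0.09 to 0.28 and 0.13 to 0.28.

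As a share of estimated counts the canonical members held 2.80%, 3.80%, 3.62% and 3.64% (control, DNCB, scMSC, scivMSC), and without muscle markers the scMSC share was 5.94%. Of 37 calls of single genes other than Rpl3l, 11 passed in every setting and 0 changed sign. Rpl27, Rpl3 and Rpl7l1 in DNCB against control were among those 11, with a highest adjusted p of 0.0384, 0.0469 and 0.0344, each without control replicate 1.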
